A study of Mus musculus with 4 samples.

Results

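The nuclear genes of oxidative phosphorylation were followed through their accessible chromatin in satellite cells, the resident stem cells of adult skeletal muscle, sorted in quiescence. Members were the regions of the deposited table linked to a protein-coding gene whose name starts with Nduf (complex I), Sdha, Sdhb, Sdhc or Sdhd (complex II), Uqcr or Cyc1 (complex III), Cox4, Cox5, Cox6, Cox7 or Cox8 (complex IV) or Atp5 (complex V). This rule found 65 regions of 64 genes, out of 35019 regions and 10674 named genes, and used no measured value. Complex I held 30 regions, complex II 4, complex III 7, complex IV 11 and complex V 13, of which 2 belonged to Atp5d. The rows of chromosome M, 9 regions linked to 6 genes, were set beside them.

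Accessibility was measured by ATAC-seq, in which Tn5 transposase cuts open chromatin and adds adapters, in 10000 to 20000 sorted cells per library. The 2 groups were mdx mice, which carry a mutation in the dystrophin gene and serve as a model of Duchenne muscular dystrophy, and wild type mice, with 2 libraries each. The sources used here give no age, sex, strain or treatment, and name 3 mice per condition without tying a library to a mouse. A p-value here therefore weighs a difference against library-to-library spread alone, and that spread may be technical.

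The respiratory chain passes electrons from NADH (complex I) and succinate (complex II) through ubiquinone, complex III and cytochrome c to oxygen at complex IV, and complex V, the ATP synthase, uses the proton gradient this builds. Most subunits are encoded in the nucleus, and a few core subunits of complexes I, III, IV and V are encoded by mitochondrial DNA. These complexes therefore need products of both genomes. Quiescent satellite cells are known for few mitochondria and a low respiratory rate. The nuclear genes are scattered over the genome, and the transcription factors NRF1, GABP (an ETS-family factor) and YY1 are known to bind many of their promoters.

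The 65 member regions lay on 18 chromosomes and were 158 to 801 bp wide. A region within 1 kb of the linked gene's start, called a promoter region here, was found for 62 genes (63 regions), and the centres of 44 member regions lay within 100 bp of the start. The exceptions were the regions of Ndufa4l2, a hypoxia-inducible relative of Ndufa4, and Ndufs6, an accessory subunit of complex I, centred 1937 bp and 2551 bp from the start. The name rule also takes in proteins that are not subunits, namely the assembly factors Ndufaf2 to Ndufaf6 and Ndufaf8, Sdhaf3 and Sdhaf4, and Atp5s and Atp5sl, which RefSeq names Dmac2l and Dmac2. Ndufa4 is counted under complex I by its name, although its protein is now regarded as a subunit of complex IV.

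RefSeq windows of 300 bases, from 250 before to 50 after a gene's start (GRCm38.p6, the assembly known as mm10), were matched to 51 of the 62 genes with a promoter region. Positions of matches count from the RefSeq start. It lay within 100 bp of the deposited start in 45 of the 51, and at most 818 bp from it. 3 strings of letters were searched on both strands: GCGCA, any base, then GCGC for NRF1, CCGGAAG for ETS factors such as GABP, and AANATGGC for YY1. The NRF1 string was in 13 of 51 member windows (25.5%), against 11.0% of the 7724 windows of protein-coding genes with a tested promoter region and 4.60% of all 32851 windows. The ETS string was in 10 (19.6%), against 18.5% and 8.86%. The YY1 string was in 9 (17.6%), against 8.62% and 6.05%. At least 1 of the 3 strings was in 28 member windows (54.9%), against 33.2% and 17.4%, and no match overlapped a match to another string. Member windows had a median GC content of 58.7%, against 62.3% in the windows with a tested promoter region. The letters TATAAA in the 50 bases before the start were in 0 of 51 member windows, against 1.35%. A match describes letters only and says nothing of binding.

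The YY1 string stood in one place and one orientation in most members that had it. Its first base came after the gene's start in 8 of 9 member windows (88.9%). In 7 of 9 (77.8%) it also read along the gene's own strand. Among the 666 matched windows of protein-coding genes with a tested promoter region these shares were 54.2% and 41.0%. Because this placement was noticed in these sequences, it is a description. The 8 matches with 8 bases of window on both sides are shown 5′ to 3′ on the gene's strand, with the YY1 string in capitals. The first 6 read along the gene and begin 11 to 30 bases after the RefSeq start, whereas those of Atp5b and Ndufaf3 read on the opposite strand. At Atp5j2 the RefSeq start lay 521 bp from the deposited start.
Ndufaf8 (chr11:120098936-120098959, strand plus): cagggcccAAGATGGCggcgccct
Ndufa3 (chr7:3617387-3617410, strand plus): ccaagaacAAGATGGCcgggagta
Ndufc1 (chr3:51408918-51408941, strand minus): tgcggaacAAGATGGCgccgtccg
Atp5j2 (chr5:145191503-145191526, strand minus): aggacttcAAGATGGCgtcactcg
Atp5sl (chr7:25619432-25619455, strand plus): tacctggcAAGATGGCggcgccca
Ndufa9 (chr6:126849100-126849123, strand minus): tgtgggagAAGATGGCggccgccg
Atp5b (chr10:128083316-128083339, strand plus): cggattccGCCATGTTgagtcttg
Ndufaf3 (chr9:108567498-108567521, strand minus): gacttggaGCCATTTTaaggagaa

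6 longer promoter stretches, from 250 bases before to 30 after the RefSeq start, are shown for members that stood at the edge of their complex by level or by fold change, those with a match first. Sdhaf3 had the highest value of complex II. Sdhb, Cox8a, Ndufb6 and Atp5o had the highest fold change of complexes II, IV, I and V, and Atp5s had the lowest fold change and the highest value of complex V. Capitals mark the NRF1 or ETS string. In Sdhaf3 an NRF1 match begins 7 bases before the start and an ETS match 127 before, and the stretch of Atp5s holds none of the 3 strings.
Sdhaf3 (chr6:6955768-6956047, strand plus): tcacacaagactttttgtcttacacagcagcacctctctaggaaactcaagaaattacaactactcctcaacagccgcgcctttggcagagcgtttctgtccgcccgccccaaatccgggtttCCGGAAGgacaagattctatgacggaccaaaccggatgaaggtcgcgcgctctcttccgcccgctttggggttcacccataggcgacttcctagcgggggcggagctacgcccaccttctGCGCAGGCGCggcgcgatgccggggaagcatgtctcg
Sdhb (chr4:140961021-140961300, strand plus): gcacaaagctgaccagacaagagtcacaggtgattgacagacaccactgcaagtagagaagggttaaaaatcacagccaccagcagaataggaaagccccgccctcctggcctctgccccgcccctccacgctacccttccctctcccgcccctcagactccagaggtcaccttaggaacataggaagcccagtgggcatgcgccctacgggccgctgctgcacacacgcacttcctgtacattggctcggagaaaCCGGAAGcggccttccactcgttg
Cox8a (chr19:7217587-7217866, strand minus): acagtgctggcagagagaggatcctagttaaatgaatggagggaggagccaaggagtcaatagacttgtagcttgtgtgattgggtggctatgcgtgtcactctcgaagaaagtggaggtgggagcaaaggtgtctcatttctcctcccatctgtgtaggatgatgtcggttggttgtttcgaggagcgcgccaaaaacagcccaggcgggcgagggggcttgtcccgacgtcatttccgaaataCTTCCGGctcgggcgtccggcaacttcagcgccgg
Ndufb6 (chr4:40279392-40279671, strand minus): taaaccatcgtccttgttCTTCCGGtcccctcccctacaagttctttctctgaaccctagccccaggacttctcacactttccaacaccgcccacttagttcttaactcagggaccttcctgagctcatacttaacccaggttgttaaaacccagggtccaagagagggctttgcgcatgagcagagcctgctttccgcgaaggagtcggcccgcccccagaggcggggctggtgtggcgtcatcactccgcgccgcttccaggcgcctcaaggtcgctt
Atp5o (chr16:91931601-91931880, strand minus): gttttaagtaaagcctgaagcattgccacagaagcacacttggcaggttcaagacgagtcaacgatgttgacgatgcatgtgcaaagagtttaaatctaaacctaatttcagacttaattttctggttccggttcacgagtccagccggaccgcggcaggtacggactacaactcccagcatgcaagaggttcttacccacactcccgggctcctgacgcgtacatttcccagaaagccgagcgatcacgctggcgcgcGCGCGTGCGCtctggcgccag
Atp5s (chr12:69724695-69724974, strand plus): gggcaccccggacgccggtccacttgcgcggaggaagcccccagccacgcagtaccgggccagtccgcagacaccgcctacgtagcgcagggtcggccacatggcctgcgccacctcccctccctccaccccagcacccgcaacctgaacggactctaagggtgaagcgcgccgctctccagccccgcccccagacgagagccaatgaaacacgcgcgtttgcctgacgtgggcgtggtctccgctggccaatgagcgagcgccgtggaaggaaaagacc

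Neighbouring genes limit what a region can be tied to. RefSeq starts were searched on the chromosomes of 60 member genes with a promoter region. Of these genes, 9 (15%) had the start of a protein-coding gene on the opposite strand within 1000 bp, against 800 of 9460 genes (8.46%). These pairs were Ndufa4 with Phf14, Ndufa5 with Asb15, Ndufa8 with Morn5, Ndufaf2 with Ercc8, Ndufaf5 with Esf1, Ndufaf8 with Tepsin, Ndufb3 with Fam126b, Uqcr10 with Zmat5, and Atp5c1 with Kin. Their regions had a median level of 341 scaled reads per kb of region over the 4 libraries, against 191 for the 52 member promoter regions without such a neighbour. A scaled read is the deposited unit, a read multiplied by 1 factor per library.

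RefSeq lists 101 protein-coding genes under the name rule, and 38 of them had no linked region under any of their names. For 15 of these 38, a region did lie within 1 kb of the RefSeq start but was linked to a neighbouring gene. Among them were Sdha, the catalytic subunit of complex II (region linked to Ccdc127), Sdhd, one of its membrane anchors (Timm8b), Uqcrh, the hinge protein of complex III (Lrrc41), and Atp5j, a stalk subunit of complex V (Gabpa). These 16 neighbour-linked regions are not members and none passed the test described next (smallest adjusted p 0.117, at the region shared by Ndufb1 and Cpsf2; limma). Their median log2 fold change was -0.13, with a range from -0.68 to 0.40. For 17 genes no region of the table lay within 1 kb of the RefSeq start. They included Cox7a1 and Cox8b, the isoforms of complex IV typical of heart and skeletal muscle, and Cox7b2, a testis isoform, and also general subunits such as Ndufs7, Ndufs8 and Atp5g2. The starts of the remaining 6, Cox4i2, Cox6a2, Cox8c, Ndufs1, Ndufb9 and Ndufb4c, were not analysed here.

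Across the whole table, recovered reads in the listed regions ranged from 3208478 to 3693096 in 3 of the libraries and were estimated at 8165206 in wild type replicate 2. All 9 satellite cell markers examined, Pax7 and Calcr among them, had a linked region, and their summed values were 1609 and 1518 in mdx against 1827 and 1681 in wild type. None of 5 leukocyte markers had one. Of 6 muscle fibre markers, 2 had linked regions, with summed values of 299 and 293 in mdx against 141 and 190 in wild type, and Acta1 and Ckm had none. 1 of the 4 regions of these fibre markers passed the test, where none of the regions of the other marker lists did (limma; 4.18% of all tested regions did). It lies at Casq1, which encodes a protein that stores calcium in fibres, and, picked out after its values were seen, was higher in mdx, at 97 and 70 scaled reads against 24 and 31 (log2 fold change 1.56 ± 0.36, SE, limma, adjusted p = 0.0344). Of 6 markers of fibro-adipogenic progenitors, 5 had linked regions, summing to 409 and 446 against 360 and 395. Smooth muscle and pericyte markers (3 of 4) summed to 309 and 249 against 194 and 253, and endothelial markers (1 of 4) to 152 and 131 against 131 and 146. The part of other cell types in the results was not tested.

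The first comparison asked whether accessibility at the oxidative phosphorylation genes differed between mdx and wild type cells. No member region passed the test in either direction, and the promoters of these genes sat slightly lower in mdx by about the same amount as promoters in general. All 65 member regions passed the filter on low values, and none passed it through only 1 group. With limma and Benjamini-Hochberg adjustment over 33161 tested regions, 0 of 65 reached an adjusted p under 0.05, where 4.18% of all tested regions (3.3% higher in mdx, 0.881% lower) and 2.42% of 11284 nuclear promoter regions (0.691% higher, 1.73% lower) did. At an unadjusted p under 0.05 there were 5 lower and 0 higher, all of them among the 63 promoter regions, where 17.8% and 3.18% of nuclear promoter regions were. The voom test on recovered reads also called 0, and 3.89% of nuclear promoter regions. With any 1 of the 4 libraries left out, no region of the whole table was called, so the background shares above hold for the full set of libraries only.

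The median log2 fold change, mdx minus wild type, was -0.28 over the 63 member promoter regions and -0.25 over all nuclear promoter regions, while distal nuclear regions had a median of 0.19. The value lay below 0 in 54 of 63 members (85.7%), against 74.6% of nuclear promoter regions and 77.3% of those of protein-coding genes, as all members are. When the libraries were rescaled so that their promoter medians were equal, 43 of 63 members remained below 0 (68.3%, against 55.5%). The medians were then -0.09 against -0.05, a rescaling that moves both alike. Member fold changes spanned -1.02 to 0.43, with an interquartile range of 0.29 against 0.49 for nuclear promoter regions of a similar median level (116.5 against 115.25 scaled reads). The member median depended on single libraries: it was -0.17 without mdx replicate 1 and -0.16 without wild type replicate 1, where all nuclear promoter regions gave -0.18 and -0.17. The share of members below 0 was then 66.7% and 71.4%, against 68.2% and 68.9% of nuclear promoter regions. Without mdx replicate 2 and without wild type replicate 2 that share was 82.5% and 85.7%, against 74.5% and 75.6%.

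**Figure D1:**
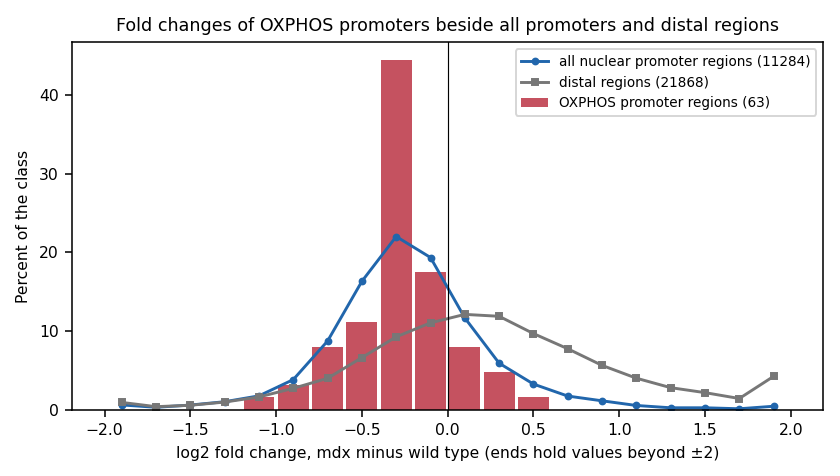
Share of regions (percent of each class) in bins of log2 fold change (mdx minus wild type), for the 63 oxidative phosphorylation promoter regions (bars), all 11284 nuclear promoter regions (circles) and the distal nuclear regions (squares). The member bars are centred left of 0 with the promoter curve (medians -0.28 and -0.25), and the distal curve is centred right of 0 (median 0.19).

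Both mdx libraries lay below both wild type libraries in 27 of the 63 member promoter regions (42.9%), where 43.5% of nuclear promoter regions did so. Both mdx libraries lay above in 5 (7.94%), against 10.4%, and the groups overlapped in the other 31. Over all 65 members the counts were 28 below and 6 above, against 25.9% and 26.8% of all tested regions. Wild type replicate 1 was the highest library in 39 of 63 member promoter regions (61.9%, against 54.5% of nuclear promoter regions) and mdx replicate 1 the lowest in 33 (52.4%, against 49.3%). In such bulk libraries, fewer cells with an open region and a lower signal per cell cannot be told apart.

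Set against promoters alone, the members took up nearly the same share of each library. Member promoter regions held 0.423% and 0.431% of the scaled reads of all nuclear promoter regions in mdx, against 0.427% and 0.428% in wild type (replicate 1 first, as in every such pair of values). The means were 0.427% ± 0.00582 and 0.427% ± 0.00101 (SD, n = 2 each, exact permutation test, two-sided, p = 1.0). Of all nuclear scaled reads, the 65 members held 0.226% and 0.250% in mdx and 0.277% and 0.265% in wild type. Here the groups did not overlap (exact permutation test, two-sided, p = 0.333, the smallest that 2 against 2 libraries allow). Promoters as a whole moved with this share: in mdx they held 52.8% and 57.2% of nuclear scaled reads and in wild type 64.1% and 61.1%.

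**Figure D2:**
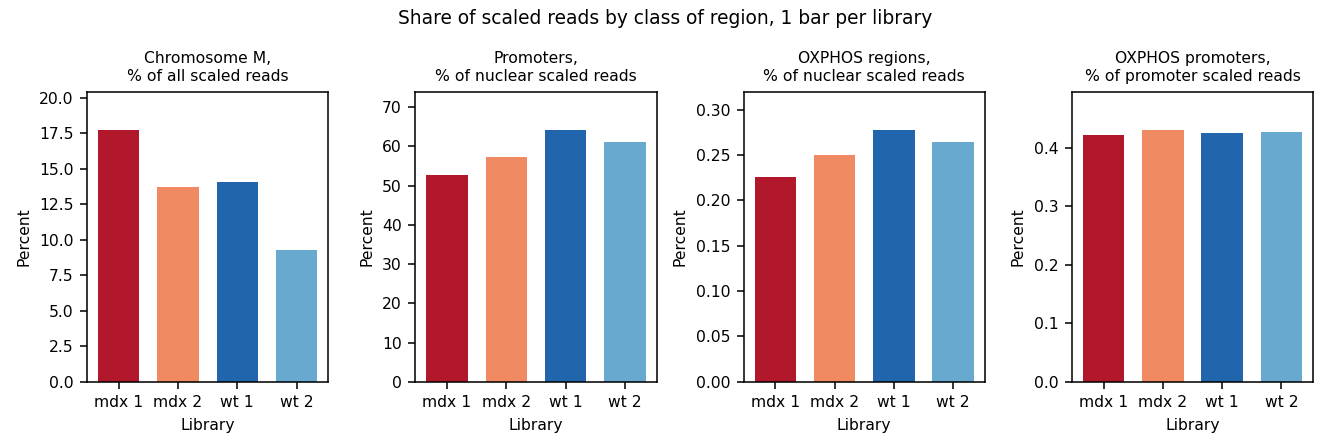
Percent of scaled reads in each of the 4 libraries, 1 bar per library, for chromosome M, for all nuclear promoter regions, for the oxidative phosphorylation (OXPHOS) regions among nuclear regions, and for OXPHOS promoters among promoters. The last panel is flat (0.423% to 0.431%), whereas in the panels for promoters and for OXPHOS regions both mdx bars stand below both wild type bars.

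The members differed far more among themselves than between the groups. Per kb of region, the mean over the 4 libraries ran from 91.0 scaled reads at Uqcr10 to 699 at Atp5s, and 9 members reached at least 500. Among the highest after Atp5s were Cox7a2 (639 scaled reads per kb), Ndufa4 (620), Ndufaf2 (620), Uqcrfs1 (597) and Ndufv2 (580). Lowest after Uqcr10 were Ndufc2 (93.8) and Cox6b2 (94.0). Assembly factors of complex I had a higher median than its subunits, 376 scaled reads per kb over 6 promoter regions against 221 over 22. The sets overlapped, with 173 at Ndufaf3 and 264 at Ndufaf8 against 580 at the subunit Ndufv2. Ndufaf2, Ndufaf5 and Ndufaf8 have a start on the opposite strand nearby, as do Ndufa4, Ndufa5, Ndufa8 and Ndufb3. The part of such neighbours in these levels was not tested. The depth behind these values is modest: a member region held 66 reads in the median in mdx replicate 1 and 217 in wild type replicate 2, and as few as 8, at Atp5j2.

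**Figure D3:**
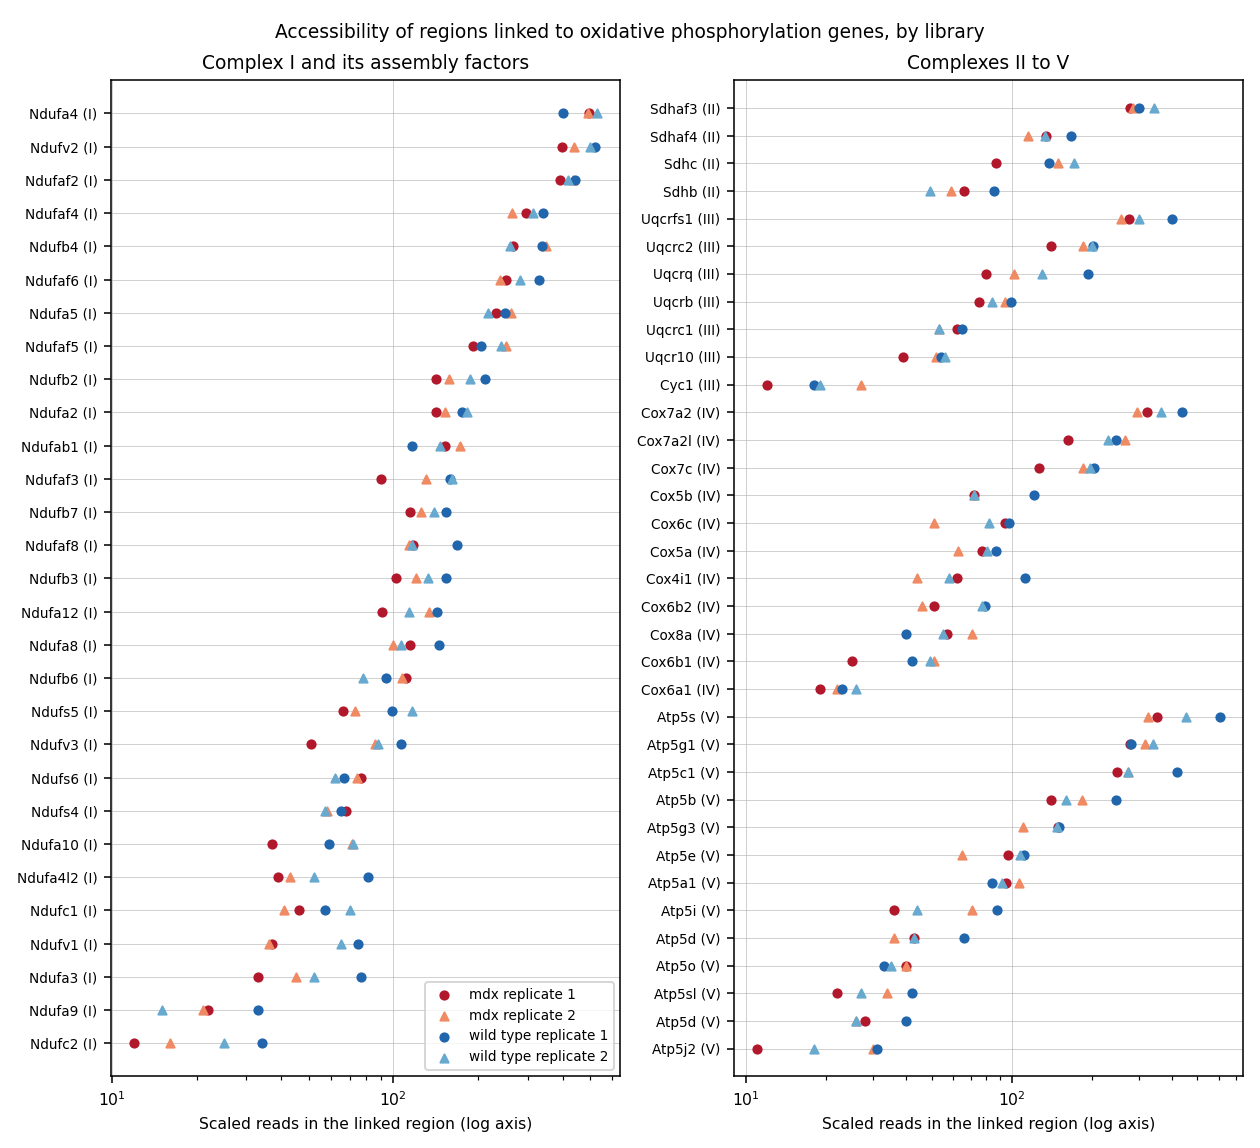
Scaled reads in the member regions (log axis; 1 member is not shown), 1 point per library, with complex I on the left and complexes II to V on the right, ordered by mean within a complex. By mean, regions range from Cyc1 (12 to 27 scaled reads over the libraries) to Ndufa4 (401 to 531). In most rows the points of the 4 libraries lie close together compared with the spread between rows.

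Complex I, which oxidises NADH, had 28 promoter regions with a median log2 fold change of -0.28. Ndufv1, the flavoprotein subunit that takes electrons from NADH (chr19:4012517-4012957), was at 37 and 36 scaled reads in the mdx libraries and 75 and 65 in wild type. The groups did not overlap, and the log2 fold change was -0.92 ± 0.33 (SE, limma, adjusted p = 0.129). Ndufc2, a small subunit of the membrane arm (chr7:97400022-97400254), had the lowest fold change of all members, from 12 and 16 against 34 and 25 scaled reads. It reached -1.02 ± 0.49 (SE, limma, adjusted p = 0.236) at one of the lowest levels of the list. Ndufa4 had the highest value of the Nduf genes, at 498 and 493 in mdx and 401 and 531 in wild type, and the mdx values lay between those of the wild type libraries. At the other end, Ndufb6, a membrane-arm subunit (chr4:40279125-40279726), held 111 and 107 in mdx and 94 and 78 in wild type, without overlap (log2 fold change 0.34 ± 0.27, SE, limma, adjusted p = 0.475). Ndufab1, the mitochondrial acyl carrier protein, lay on the same side (0.32). The 6 assembly factors Ndufaf2, Ndufaf3, Ndufaf4, Ndufaf5, Ndufaf6 and Ndufaf8 all had fold changes below 0, as did 74.6% of nuclear promoter regions. Their values ran from -0.55 at Ndufaf3 to -0.02 at Ndufaf5. The distal region of Ndufa4l2 had values of 39 and 43 in mdx and 81 and 52 in wild type (log2 fold change -0.65, adjusted p = 0.293), and that of Ndufs6 77 and 74 against 67 and 62 (0.22).

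Complex II, the succinate dehydrogenase shared with the tricarboxylic acid cycle, had 4 regions with a median of -0.22. Sdhb, its iron-sulfur subunit, held 66 and 59 in mdx and 86 and 49 in wild type, where the wild type libraries enclosed both mdx libraries. Sdhc, a membrane anchor, had the lowest fold change over all 4 libraries (-0.43) with overlapping groups, 87 and 149 against 138 and 172. That value rested on mdx replicate 1: it was -0.05 without that library and -0.82 without mdx replicate 2. The assembly factor Sdhaf3, which acts on the iron-sulfur subunit, was at 278 and 285 in mdx and 302 and 343 in wild type (-0.19), without overlap.

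Complex III, which passes electrons from ubiquinol to cytochrome c, had 7 regions with a median of -0.28. All 7 had fold changes below 0, as did 74.6% of nuclear promoter regions. Uqcrq, a small accessory subunit (chr11:53430671-53431284), held 80 and 102 in mdx and 193 and 130 in wild type. Both mdx libraries were lower, and the log2 fold change was -0.80 ± 0.28 (SE, limma, adjusted p = 0.114). Uqcrfs1, the Rieske iron-sulfur protein, held 276 and 257 against 401 and 301 (-0.38, adjusted p = 0.281). The core protein gene Uqcrc1 held 62 and 53 against 65 and 53 and overlapped (-0.03). Cyc1, which encodes cytochrome c1, was the lowest region of the complex by value, with 12 and 27 in mdx and 18 and 19 in wild type (-0.03, 95% interval -1.21 to 1.14), so its interval spans a change of more than 2-fold in either direction.

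Complex IV, cytochrome c oxidase, had 11 regions with a median of -0.36, the lowest of the 5 complexes. Cox6b2, the testis isoform of subunit VIb (chr7:4752508-4753181), held 51 and 46 in mdx and 79 and 77 in wild type, without overlap (log2 fold change -0.68 ± 0.31, SE, limma, adjusted p = 0.214). Cox4i1, the broadly expressed isoform of subunit IV, held 62 and 44 against 112 and 58, with overlap (-0.62, adjusted p = 0.344). It moved to -0.15 without wild type replicate 1 and to -1.09 without wild type replicate 2. Cox7a2, the general isoform of subunit VIIa, had the highest value of the complex, 323 and 296 against 437 and 363 (-0.36), without overlap. Its relative Cox7a2l, known for its part in joining complexes III and IV, held 163 and 266 against 246 and 231 and overlapped (-0.19). Cox6a1, the general isoform of subunit VIa, was low in every library, at 19 and 22 against 23 and 26 (-0.25). Cox8a, the general isoform of subunit VIII (chr19:7217382-7217852), stood opposite to the rest of the complex with 57 and 71 in mdx and 40 and 55 in wild type, the highest fold change of all members (0.43 ± 0.34, SE, limma, adjusted p = 0.481).

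Complex V, the ATP synthase, had 13 regions with a median of -0.29. Atp5s, which is not a structural subunit (chr12:69724685-69725307), held 352 and 327 in mdx and 608 and 451 in wild type. It had the smallest adjusted p of the members, with both mdx libraries lower (log2 fold change -0.62 ± 0.19, SE, limma, adjusted p = 0.0791). That p crossed the threshold when only regions with a mean of at least 50 scaled reads were tested (adjusted p = 0.0298, limma), a setting that called 7.92% of nuclear promoter regions, and when distal medians were set equal (0.00916), which called 22.1% of them. Over the alternatives in scaling, filter, pseudocount, variance model and uncrossed block its adjusted p lay between 0.00916 and 0.150, with 0.0714 for the replicate number as a block. Crossed replicate numbers, chosen after seeing the data, gave 0.00372. Over single left-out libraries it lay between 0.288 and 0.670. Atp5b, the catalytic beta subunit, held 140 and 184 against 246 and 160 (-0.30), with overlap. Atp5a1, the alpha subunit, held 95 and 106 against 84 and 92 (0.19), and Atp5o, the stalk subunit known as OSCP, 40 and 40 against 33 and 35 (0.23), both without overlap and on the side of mdx. The c-ring is encoded by 3 genes for the same mature protein: Atp5g1 held 278 and 316 against 282 and 340 (-0.06), Atp5g3 149 and 110 against 150 and 148 (-0.22), and Atp5g2 had no region at its start.

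**Figure D4:**
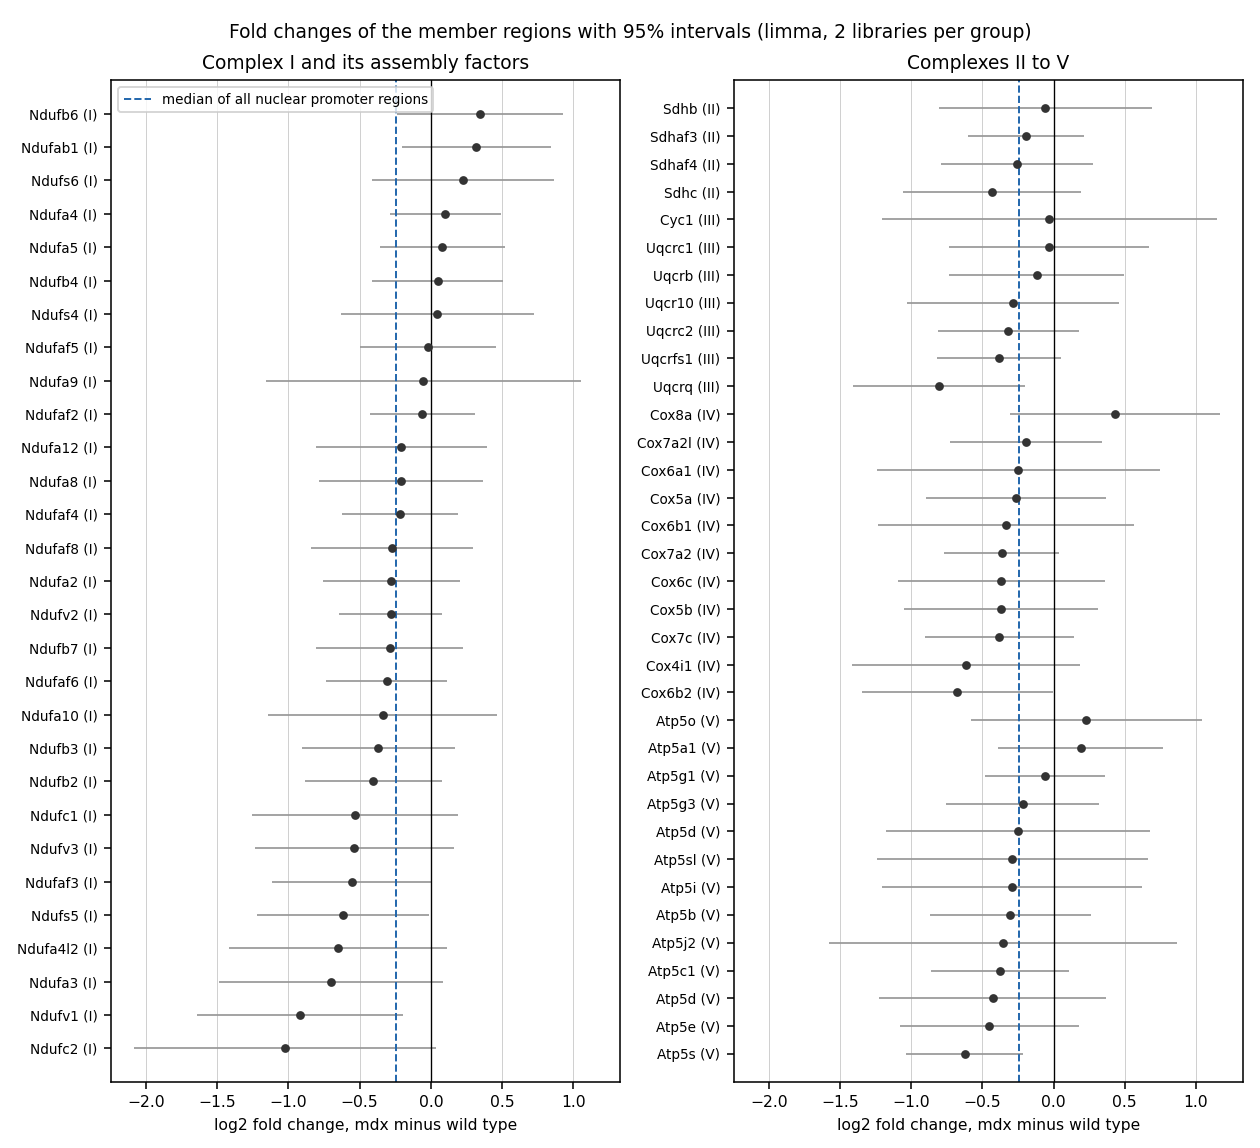
Log2 fold change, mdx minus wild type, of the member regions (1 member is not shown), each with its 95% interval (limma, 2 libraries per group), sorted within each complex, with a solid line at 0 and a dashed line at the median of all nuclear promoter regions (-0.25). Most intervals cover 0 and most cover the dashed line, and the points run from -1.02 (Ndufc2) to 0.43 (Cox8a).

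The precision allows some limits to be given. The 95% interval of the fold change lay within 2-fold in both directions for 35 of the 63 member promoter regions, and the median width on either side of the estimate was 0.60 on the log2 scale. For the remaining 28 the interval reached past 2-fold on at least 1 side, at this depth and number of libraries. Leaving out 1 library moved the log2 fold change by over 1.5 times, or turned its sign, for 20 of the 24 member regions named by rule and reported singly. Member windows with the NRF1 string had a median log2 fold change of -0.21 (13 genes) and those without it -0.34 (38 genes). Among protein-coding genes with a tested promoter region the order was the reverse, -0.31 with the string and -0.26 without. The gaps were smaller for the other strings. Member medians were -0.26 with the ETS string (10 genes) and -0.29 without (41 genes). With the YY1 string they were -0.30 (9 genes) and without it -0.27 (42 genes). None of these differences was tested.

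Regulators of these genes were examined next. Of the 27 names on a list of regulators of mitochondrial biogenesis, 19 had a tested promoter region, and 0 passed in either direction (limma; 2.42% of nuclear promoter regions did), with 2 lower and 0 higher at an unadjusted p under 0.05 (17.8% and 3.18% of nuclear promoter regions). The median over these 19 was -0.29 on the log2 scale, beside -0.25 for nuclear promoter regions as a whole. Ppargc1a, the coactivator PGC-1alpha, held 236 and 222 in mdx and 180 and 221 in wild type (0.20), and its relative Ppargc1b 84 and 60 against 121 and 63 (-0.30). The factors themselves lay on the lower side: Nrf1 held 93 and 131 against 166 and 156 (-0.54, adjusted p = 0.230), and Gabpa, whose region also covers the start of Atp5j, 760 and 780 against 1054 and 836 (-0.29, adjusted p = 0.295). Tfam, which packages mitochondrial DNA and acts in its transcription, held 135 and 144 against 186 and 212 (-0.51, limma, adjusted p = 0.197). Esrra, a nuclear receptor that works with PGC-1alpha, was opposite, with 138 and 175 against 104 and 114 (0.51, adjusted p = 0.244). In each of Nrf1, Gabpa, Tfam and Esrra the groups did not overlap. Over the 19 promoter regions of the list, both mdx libraries lay below both wild type libraries in 36.8% and above in 15.8%. Of nuclear promoter regions, 43.5% and 10.4% did so. The fold change was above 0 in 6 of the 19. A distal region 1462 bp from the start of Yy1, picked out after its values were seen, held 97 and 109 in mdx and 214 and 170 in wild type (-0.88, adjusted p = 0.0594), while the promoter region of Yy1 held 196 and 174 against 217 and 221 (-0.24).

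Other lists of the same metabolism gave no call among their promoter regions either (limma; 2.42% of nuclear promoter regions were called). The median log2 fold change was -0.35 over 9 regions of respiratory chain genes outside the name rule, -0.42 over 7 of further complex I assembly factors, -0.20 over 15 of assembly factors of complexes III to V, -0.25 over 18 of the tricarboxylic acid cycle, and -0.15 over 15 of glycolysis. At an unadjusted p under 0.05 they held 1, 4, 1, 2 and 3 lower and 0 higher, beside 17.8% lower and 3.18% higher among nuclear promoter regions. Mp68, a small subunit of complex V that RefSeq names Atp5mpl, belongs to the first of these lists and held 82 and 64 in mdx and 86 and 112 in wild type (-0.43).

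The second comparison set the nuclear genes beside mitochondrial DNA, which is not packed into nucleosomes and is cut by Tn5 in most ATAC-seq preparations. The 9 regions of chromosome M held 17.7% and 13.7% of all scaled reads in mdx, against 14.0% and 9.31% in wild type. The groups overlapped, since mdx replicate 2 lay below wild type replicate 1. The means were 15.7% ± 2.84 and 11.7% ± 3.35 (SD, n = 2 each), a difference of 4.05 percentage points (exact permutation test, two-sided, p = 0.667). Leaving out mdx replicate 1 gave 2.04 points, leaving out wild type replicate 2 gave 1.68, and leaving out wild type replicate 1 gave 6.42. Nuclear copies of mitochondrial DNA exist, and how reads that match both were assigned is not given in the sources used here.

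All 9 mitochondrial regions behaved alike. The widest, linked to Mtnd6 (chrM:11835-14166), held 236816 and 173460 scaled reads in mdx, against 188094 and 111436 in wild type. The lowest by value, linked to Mtnd5 (chrM:11286-11510), held 18540 and 13891 against 15940 and 9098. Between these lay 3 regions linked to Mtnd1, 1 to Mtnd2, 2 to Mtco1 and 1 to Mt-Cyb. In every one mdx replicate 1 was the highest library and wild type replicate 2 the lowest, and the groups overlapped. Log2 fold changes ran from 0.37 (Mtnd2) to 0.53 (Mtco1), and 0 of 9 passed (limma, adjusted p from 0.101 to 0.293, with 6 higher at an unadjusted p under 0.05, as were 13.8% of all tested regions). The count of 0 depended on the fit. All 9 passed with voom on recovered reads (6.25% of all tested regions did), with cyclic loess (6.77%) and with the replicate number as a block (8.33%), and 6 passed with promoter medians set equal (5.97%). The voom log2 fold changes were 0.55 to 0.73. The share of each region within chromosome M hardly varied, at 30.1%, 30.2%, 29.7% and 29.8% for the Mtnd6 region across the 4 libraries. The 9 regions therefore repeat close to 1 measurement per library. A count of them cannot be weighed against a share over separate regions.

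**Figure D5:**
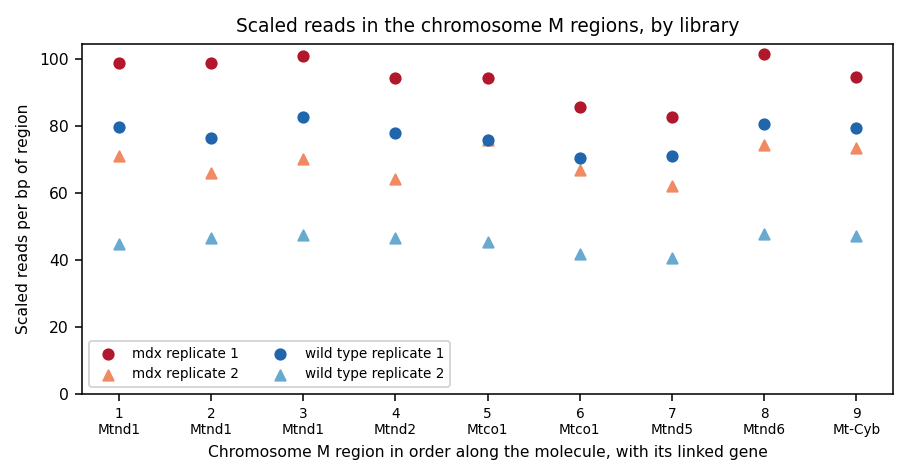
Scaled reads per bp in the 9 chromosome M regions, in order along the molecule, 1 point per library. In each region mdx replicate 1 is highest and wild type replicate 2 lowest, with the other libraries between them, so the groups overlap throughout.

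The ratio of chromosome M scaled reads to those of the 65 nuclear members was 95.4 and 63.7 in mdx and 58.9 and 38.8 in wild type. The groups did not overlap (79.5 ± 22.4 against 48.9 ± 14.2, SD, n = 2 each, exact permutation test, two-sided, p = 0.333, the smallest possible). The share of promoters among nuclear scaled reads, given above, differed between the groups in the same libraries, and its part in this ratio was not tested.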

How the data were processed

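ATAC-seq of sorted quiescent satellite cells gave 4 libraries, 2 per group, grouped by their titles. The submitters' processing notes list MACS2 2.1.0, STAR 2.5.3a, Trimmomatic 0.33, Picard 2.9.0, DESeq and DESeq2, with build mm10. The role of each, the treatment of duplicates, any Tn5 shift and any pooling before peak calling are not given there. The values the authors deposited are treated as a score: reads per region multiplied by 1 factor per library and rounded. In 3 libraries whole numbers that never occur show the factor (1.382, 1.162 and 1.222). In wild type replicate 2 no number is skipped, and a factor of 0.492 was fitted to how often each value occurs: 12 values that would then hold an extra read number occurred 1.57 times as often as their neighbours, where 1.5 would follow from the factor. Dividing by the factors gave recovered reads, an estimate in that library, which count reads in the listed regions and not library totals. Coordinates are printed as deposited, with the counting base of the starts (0 or 1) unstated. The number of other sample columns is 0.

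The test was limma (3.58.1, R 4.3.3) with a variance trend on log2(value + 1), with group as its single term, for the 33161 of 35019 regions that reached 10 in 2 or more libraries. Adjustment was Benjamini-Hochberg over these, at 0.05. Fold changes on this scale understate those of low regions. Shares per library were compared by an exact permutation test (SciPy 1.17.1), two-sided. The scripts were tested on simulated data. A promoter region overlaps the 1 kb before or after its gene's start.

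The text names any member past the threshold, the promoter region with the highest value and the highest and lowest fold change in each complex, a list of catalytic, core and isoform genes and of regulators by name, and every chromosome M region. Other members named for ranks or counts were picked out after their values were seen. The members and lists were chosen with earlier results of these data known. Alternatives covered scaling, filter, pseudocount, regions fitted, variance model, promoter window, membership, threshold, replicate block and each library left out. RefSeq (GRCm38.p6) supplied gene names and promoter windows. 1 member counts in every total but is not reported singly here.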

Additional observations from a re-analysis of the deposited data

How the results depend on the processing

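The count of called oxidative phosphorylation regions stayed at 0 under every alternative run except 4: it was 8 with distal medians set equal (Ndufaf3, Ndufs5, Ndufv1, Uqcrfs1, Uqcrq, Cox6b2, Cox7a2 and Atp5s, all lower in mdx, where 22.1% of nuclear promoter regions were called), 1 with a mean value of at least 50 (Atp5s), 1 at a threshold of 0.1 (Atp5s) and 2 with crossed replicate numbers. Over single left-out libraries it was 0 to 0. Their median log2 fold change was -0.085 with promoter medians set equal and -0.62 with distal medians set equal (all nuclear promoter regions -0.05 and -0.58). It was -0.38 to -0.16 over single left-out libraries, where the gap to all nuclear promoter regions ran from -0.05 to 0.01. Under both scalings that gap stayed at -0.04, because they shift all regions of a library by 1 amount and cannot change it. These scalings moved the median of all tested regions from -0.01 to 0.19 and to -0.35. The count of called regions in the whole table, 1387 (1095 higher, 292 lower), was 2269 with trimmed means of M values, 4687 with distal medians set equal (1222 higher, 3465 lower), 2245 with cyclic loess, 787 with no filter, 426 with promoter regions only, 2074 with voom and 0 with any library left out; with promoter medians set equal the split was 1821 higher and 159 lower. With the replicate number as a block it was 2761, and 0 of the oxidative phosphorylation regions were called. The labels do not say that a number pairs libraries, and same-numbered libraries deviated from their group means with a correlation of -0.11 across 33161 regions. With the numbers crossed, an alternative chosen after seeing the data together with its count, 5461 regions and 2 members (Uqcrq and Atp5s) were called. Of the 9 chromosome M regions, 2 were called with nuclear totals, 1 with trimmed means of M values and 9 with the numbers crossed. These settings called 6.17%, 6.84% and 16.5% of all tested regions, but the 9 regions repeat close to 1 measurement per library. Uncalled fold changes turned sign as follows, including some as far from 0 in the main fit as 0.37 (the Mtnd2 region) and -0.30 (Atp5b and Ppargc1b). With promoter medians set equal they were 0.0051 at Sdhaf3, 0.14 at Sdhb, 0.17 at Cyc1, 0.16 at Uqcrc1, 0.0038 at Cox7a2l and 0.13 at Atp5g1. With distal medians set equal they were -0.23 at Ndufa4, -0.11 at Atp5o, -0.15 at Atp5a1 and -0.14 at Ppargc1a. Nuclear totals gave 0.016 at Cyc1 and 0.015 at Uqcrc1, voom 0.084 at Sdhb, 0.021 at Cyc1 and 0.027 at Uqcrc1, and cyclic loess 0.073 at Atp5g1 and 0.014 at Gabpa. Over single left-out libraries the values were -0.10 to 0.30 at Ndufa4, -0.46 to 0.34 at Sdhb, -0.58 to 0.52 at Cyc1, -0.18 to 0.11 at Uqcrc1, -0.55 to 0.16 at Cox7a2l, -0.61 to 0.0045 at Atp5b, -0.20 to 0.072 at Atp5g1, -0.43 to 3.2e-05 at Atp5g3, -0.76 to 0.17 at Ppargc1b and -0.0046 to 0.75 at the Mtnd2 region of chromosome M. The cause of these shifts was not tested.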
